A study of Mus musculus with 12 samples.

Results

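The 48 genes described here encode proteins of DNA replication and of mitosis, and all 48 were found among the 14195 protein-coding genes of the liver RNA-seq data. They were taken from a list of gene names and were divided into 26 genes of the G1/S step and of replication and 22 genes of the G2/M step. In the data they had 82 of the 29883 listed protein-coding transcripts, and the level of a gene is the sum of its transcripts. Levels are given in FPKM, which divides the fragments of a transcript by its length and by the size of the library, so that genes can be compared per length.

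The mice were male, their strain was given as C57BL/8 in the labels and as C57BL/6J in the methods of the study, and they were 6 weeks old at the start. All 12 mice received 2 intraperitoneal injections of CCl4 per week, at 10 µl/g of a mixture with corn oil, and were killed in week 8. CCl4 is a solvent that injures hepatocytes and, when given repeatedly, leads to fibrosis of the liver. The 6 mice of the PZH group were also given Pien Tze Huang (PZH), a traditional Chinese medicine, into the stomach at 0.25 mg/g once a day, and the 6 control mice received water by the same route. The comparison asks which liver transcripts differ when CCl4-treated mice also receive PZH. No mouse without CCl4 and no earlier time point was analysed here, so each difference is one between 2 groups of injured livers at a single time.

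A cell that leaves rest makes D-type cyclins, which with CDK4 and CDK6 phosphorylate the retinoblastoma protein and release E2F factors. These switch on the genes of replication: origins are licensed by CDC6 and CDT1, which load the MCM helicase, and the polymerases copy the DNA from deoxynucleotides that ribonucleotide reductase supplies. The G2/M genes follow later, when cyclin B with CDK1 drives entry into mitosis, the spindle forms and the anaphase-promoting complex ends it. Hepatocytes of an uninjured adult liver rarely divide, but hepatocytes and other liver cells enter the cycle after injury.

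In the data as a whole, the sum of FPKM was 325302 to 370426 per mouse, and mice of the same group correlated at 0.971 to 0.986. The number of reads behind each value is unknown, since reads could not be recovered from the FPKM values. The median difference of all genes between PZH and control mice was -0.11 on the log2(FPKM + 1) scale. Of all genes, 44.8% passed limma with a Benjamini-Hochberg adjusted p below 0.05, with 12.7% higher and 32.1% lower in the PZH group. When each mouse was divided by a median-ratio scale factor, the median difference of all genes was -0.001, and 50.6% of the calls were in the higher direction against 28.3% with the FPKM as deposited.

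The genes of mitosis were higher in the PZH mice nearly throughout, whereas the genes of replication rose in part and the cyclins and kinases of the G1/S step mostly fell on the deposited scale. Of the 22 G2/M genes 21 rose and 0 fell (limma, adjusted over all genes), against 12.7% of all genes that rose, and all 22 differences were positive. In 20 of the 22 every PZH mouse was above every control mouse, which held for 6.46% of all genes. Of the 26 G1/S and replication genes 10 rose, 6 fell (23.1%, against 32.1% of all genes) and 10 were not called, and 6 rose without overlap between the groups. With the median-ratio scale factor 13 of these 26 rose and 1 fell, beside 2807 and 2739 of all 14195 genes. The median difference was 0.65 for the G2/M genes and 0.26 for the G1/S and replication genes on the log2(FPKM + 1) scale. In RNA of whole liver, a change in the share of dividing cells and a change in RNA per cell cannot be told apart.

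**Figure D1:**
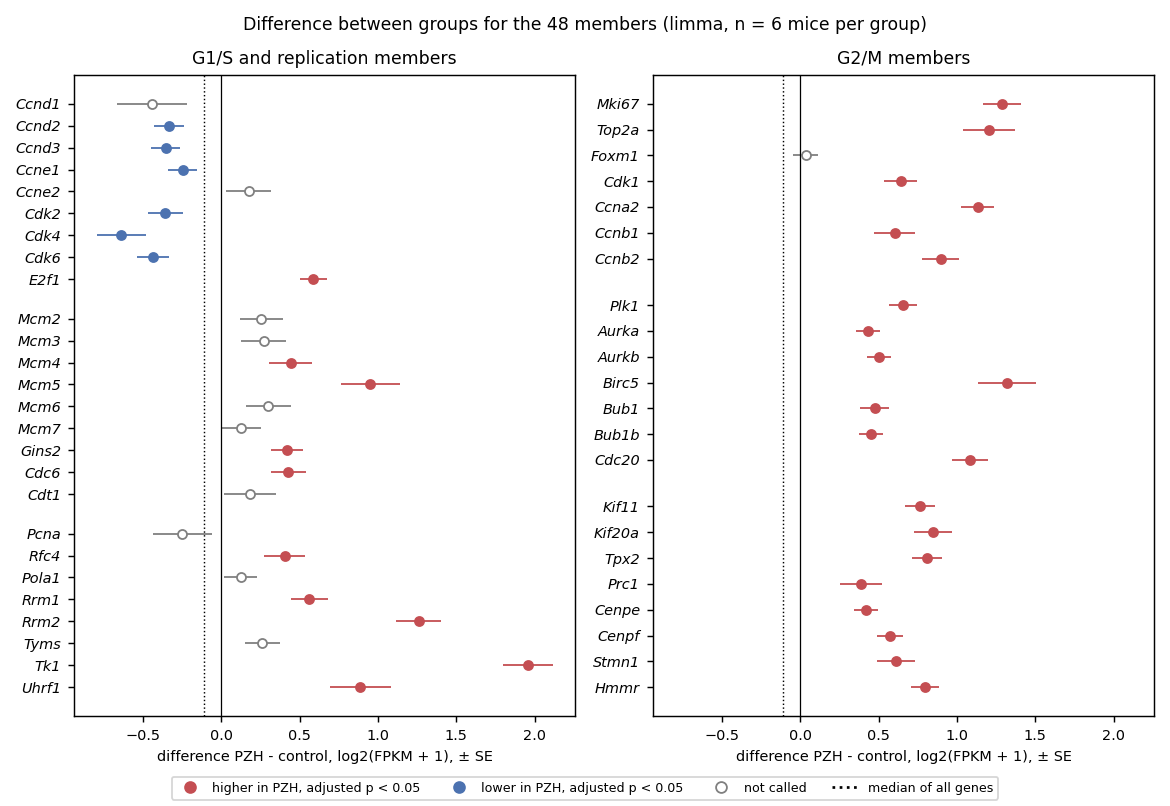
Difference between the PZH and the control group for each of the 48 genes on the log2(FPKM + 1) scale (x axis), with the standard error as a bar, and genes in 3 role groups per panel (y axis). Filled points passed the adjusted threshold in limma (red for higher and blue for lower in PZH), open points did not, and the dotted line is the median of all genes at -0.11. Of the G2/M genes 21 of 22 lie to the right as filled points.

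Genes of the 2 phases are known to be read through different promoter elements, E2F sites for G1/S genes and the cell cycle homology region with CCAAT boxes for G2/M genes, so the RefSeq promoter windows of the members (GRCm38.p6, 250 bases before to 50 bases after the start site) were searched. A window was found for 37 of the 48 genes, with 41 windows in all. Windows were missing for Aurkb, Ccna2, Ccnd1, Ccnd2, Ccne2, Foxm1, Gins2, Kif20a, Mcm4, Stmn1 and Tpx2. Both strands were searched for each motif. The cell cycle homology region was searched as the letters TTTGAA or the variant spelled TTCGAA, and the CCAAT box as its own letters. E2F was searched by the letters TTGGCGC, by the variant spelled TTCGCGC or by the one that reads TTCCCGC. An E2F match and a CCAAT match can share letters, and neighbouring E2F matches can overlap.

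The cell cycle homology region was matched in 14 of the 17 windows of G2/M genes (82.4%), in 2 of the 24 windows of G1/S and replication genes (8.33%) and in 19.2% of all 32851 promoter windows. The windows of Prc1 overlap and hold the same match, and by gene the region was matched in 13 of 16 G2/M genes. The E2F letters were matched in 13 of 24 windows of G1/S and replication genes (54.2%), in 4 of 17 of G2/M genes (23.5%) and in 8.07% of all windows. Within the G1/S and replication genes, 7 of 8 windows of the licensing and helicase genes held the E2F letters and 1 of 7 windows of the cyclin, kinase and E2F1 group did. The CCAAT box stood in 16 of 17, 14 of 24 and 37.4% of these windows. A match describes the letters of the window and not the binding of a factor, and the windows were not matched on base composition.

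**Figure D2:**
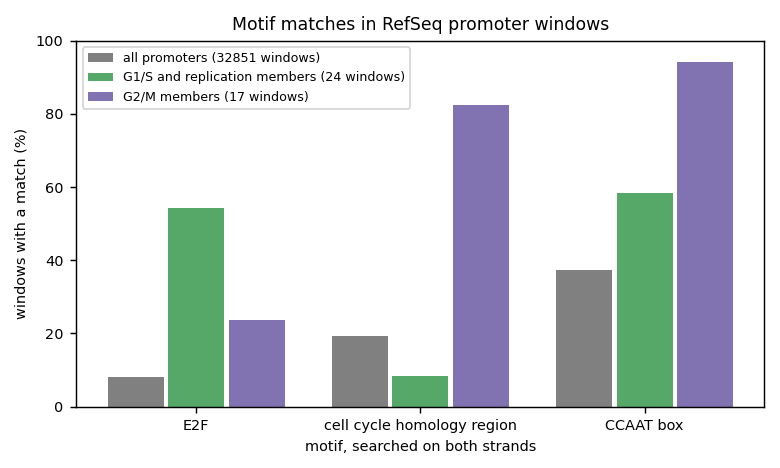
Percentage of RefSeq promoter windows with at least 1 match (y axis) for 3 motifs (x axis), in all windows (grey), G1/S and replication genes (green) and G2/M genes (purple). The cell cycle homology region stands in 82.4% of G2/M windows and 8.33% of G1/S and replication windows, and the E2F letters in 23.5% and 54.2%.

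Shown are the promoters of 3 G2/M genes and 3 replication genes that had the largest differences between the groups among the members whose window held a match, from 200 bases before to 20 bases after the start site, with all matches in capitals. Birc5 and Tk1, which had the largest differences of the G2/M and of the G1/S and replication genes, had a window without any match and are not shown. The sequences are from RefSeq and are written 5′ to 3′ on the strand of the gene. Mki67 lies at chr7:135716360-135716579 (minus strand), Top2a at chr11:99024170-99024389 (minus strand) and Cdc20 at chr4:118437324-118437543 (minus strand). Mki67 holds 2 cell cycle homology matches 116 and 98 bases before its start site, and Cdc20 holds 1 at 18 bases before it between 2 CCAAT boxes.
Mki67: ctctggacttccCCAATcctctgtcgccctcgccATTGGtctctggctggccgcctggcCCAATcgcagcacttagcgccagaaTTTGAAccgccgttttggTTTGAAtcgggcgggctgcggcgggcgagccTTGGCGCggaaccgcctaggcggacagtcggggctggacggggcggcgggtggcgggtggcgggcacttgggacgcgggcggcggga
Top2a: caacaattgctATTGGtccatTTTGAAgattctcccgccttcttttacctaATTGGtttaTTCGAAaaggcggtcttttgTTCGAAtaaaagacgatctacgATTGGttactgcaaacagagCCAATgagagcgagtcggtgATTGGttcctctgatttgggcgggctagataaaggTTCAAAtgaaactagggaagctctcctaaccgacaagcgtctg
Cdc20: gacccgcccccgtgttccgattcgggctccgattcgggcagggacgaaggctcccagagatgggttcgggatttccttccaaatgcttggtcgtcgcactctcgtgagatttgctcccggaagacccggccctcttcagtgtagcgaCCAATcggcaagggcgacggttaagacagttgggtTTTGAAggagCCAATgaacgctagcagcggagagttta

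Of the replication genes, Rrm2 lies at chr12:24708054-24708273 (plus strand), Mcm5 at chr8:75109309-75109528 (plus strand) and Uhrf1, of which the first of 2 windows is shown, at chr17:56303137-56303356 (plus strand). Mcm5 holds 3 E2F matches, of which those 152 and 149 bases before the start site overlap, and Uhrf1 holds 1 at 48 bases before it. Rrm2 holds a CCAAT box but none of the E2F letters.
Rrm2: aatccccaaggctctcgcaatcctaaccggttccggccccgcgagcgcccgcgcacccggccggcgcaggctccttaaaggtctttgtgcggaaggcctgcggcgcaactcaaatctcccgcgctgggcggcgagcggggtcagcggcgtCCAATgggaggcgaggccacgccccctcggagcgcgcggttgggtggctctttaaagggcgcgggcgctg
Mcm5: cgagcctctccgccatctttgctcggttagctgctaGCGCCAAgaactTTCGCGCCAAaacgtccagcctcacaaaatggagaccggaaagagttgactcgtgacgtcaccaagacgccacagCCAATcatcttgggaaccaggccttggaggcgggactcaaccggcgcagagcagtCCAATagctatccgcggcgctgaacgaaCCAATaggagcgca
Uhrf1: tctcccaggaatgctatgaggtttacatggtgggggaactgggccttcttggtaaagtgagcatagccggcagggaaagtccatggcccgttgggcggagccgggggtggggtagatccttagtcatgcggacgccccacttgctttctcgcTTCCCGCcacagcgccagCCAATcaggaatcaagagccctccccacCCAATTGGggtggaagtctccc

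Among the marks of proliferation and the drivers of mitotic entry, 6 of 7 genes rose, each with every PZH mouse above every control mouse. Of all genes 12.7% rose and 6.46% were higher without overlap. Mki67, the nuclear protein used in pathology to stain cycling cells, ranged from 0.423 to 0.889 FPKM in the control mice (median 0.628) and from 2.08 to 4.10 in the PZH mice (median 2.91). Its mean was 4.68 times that of the controls, and the difference was 1.29 ± 0.12 (SE, n = 6 per group, limma, adjusted p = 1.56e-05). For single genes without overlap an exact permutation of the group names (two-sided, 924 ways to divide 12 mice) gave p = 0.0022, the smallest value it can give.

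Top2a, the topoisomerase that untangles replicated chromosomes, ranged from 0.650 to 1.38 FPKM in the controls (median 0.826) and from 2.31 to 6.10 in the PZH mice (median 3.08). PZH mouse 1 stood highest and PZH mouse 2 lowest, and the difference was 1.20 ± 0.17 (SE, limma, adjusted p = 0.000134). Ccna2, the cyclin of S and G2 phase, ranged from 0.540 to 1.08 FPKM (median 0.852) in the controls and from 2.29 to 3.67 (median 3.08) in the PZH mice, a difference of 1.13 ± 0.11 (SE, limma, adjusted p = 1.56e-05). The lowest PZH mouse was well above the highest control mouse.

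Cdk1, the kinase that starts mitosis, ranged from 0.271 to 0.546 FPKM in the controls (median 0.385) and from 0.711 to 1.71 in the PZH mice (median 1.18). The groups did not overlap, although PZH mouse 2 was close to the highest control, and the difference was 0.64 ± 0.10 (SE, limma, adjusted p = 0.000329). Of its partners, Ccnb2 rose by 0.89 on this scale and Ccnb1 by 0.60, and Ccnb1 was listed at 0 in control mouse 1 and between 0.213 and 1.19 FPKM in the PZH mice.

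Foxm1, a transcription factor known to drive G2/M genes, was the only member of the 22 that was not called. It ranged from 0.0760 to 0.239 FPKM in the controls (median 0.201) and from 0.112 to 0.552 in the PZH mice (median 0.172), so that the ranges overlapped and only PZH mouse 3 was above all controls. Its difference was 0.03 ± 0.08 (SE, limma, adjusted p = 0.777), and without PZH mouse 3 it was -0.04.

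All 7 mitotic kinases and genes of the spindle checkpoint rose without overlap between the groups, against 6.46% of all genes. Birc5 (survivin), a subunit of the chromosomal passenger complex, had the largest difference of the G2/M genes on the log2(FPKM + 1) scale at 1.32 ± 0.18 (SE, limma, adjusted p = 0.000137). It ranged from 0.186 to 0.746 FPKM in the controls (median 0.311) and from 0.876 to 3.51 in the PZH mice (median 2.57), with control mouse 2 and PZH mouse 2 nearest to each other. Cdc20, the activator of the anaphase-promoting complex, ranged from 0.206 to 0.554 FPKM (median 0.322) in the controls and from 1.18 to 2.49 (median 1.89) in the PZH mice. The lowest PZH mouse was above the highest control mouse, and the difference was 1.09 ± 0.12 (SE, limma, adjusted p = 2.7e-05).

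Plk1, a kinase of centrosome maturation and cytokinesis, ranged from 0.0797 to 0.374 FPKM in the controls (median 0.184) and from 0.485 to 1.15 in the PZH mice (median 0.879). Its difference was 0.65 ± 0.09 (SE, limma, adjusted p = 0.000124). The centrosome kinase Aurka rose by 0.43, Aurkb, the kinase of the passenger complex, by 0.50, and the checkpoint kinases Bub1 and Bub1b by 0.47 and 0.45. Aurkb was listed at 0 in control mouse 6, and all PZH mice were above 0.43 FPKM.

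All 8 genes of spindle motors, kinetochore and cytokinesis rose, 7 of them without overlap, against 12.7% and 6.46% of all genes. Kif20a, a kinesin of cytokinesis, ranged from 0.400 to 0.554 FPKM in the controls (median 0.514) and from 0.907 to 2.28 in the PZH mice (median 1.81), a difference of 0.85 ± 0.12 (SE, limma, adjusted p = 0.000166). Tpx2, which nucleates spindle microtubules, ranged from 0.172 to 0.276 FPKM (median 0.211) in the controls and from 0.741 to 1.71 (median 1.13) in the PZH mice, a difference of 0.81 ± 0.10 (SE, limma, adjusted p = 4.85e-05). In both genes PZH mouse 1 was highest and PZH mouse 2 lowest, and both were above all controls.

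Hmmr, a spindle-associated hyaluronan receptor, ranged from 0.0581 to 0.164 FPKM in the controls (median 0.0936) and from 0.590 to 1.34 in the PZH mice (median 0.862). Its mean was 9.21 times the control mean, at very low control levels, and its difference was 0.80 ± 0.09 (SE, limma, adjusted p = 3.49e-05). The spindle motor Kif11 rose by 0.76, the microtubule-destabilising Stmn1 by 0.61, and the kinetochore genes Cenpf and Cenpe by 0.57 and 0.42. Prc1, which bundles the central spindle, rose by 0.39 with overlap, and 3 of 6 PZH mice were above all controls.

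The levels of the G2/M genes were low. The mean was under 1 FPKM for 19 of the 22 in the control group and for 8 of the 22 in the PZH group, and their summed level was 9.01 to 14.3 FPKM in the control mice and 23.5 to 46.1 in the PZH mice. Because 1 is added before the logarithm, differences of such genes are compressed, and with 0.1 added instead their median difference was 1.73. With a mean of at least 1 FPKM required, 10 of the 22 could be tested and all 10 rose, beside 1483 of 10950 genes. The thresholds of the study were a 2-fold difference and an unadjusted P below 0.05. Here they were applied to gene sums on the log2(FPKM + 1) scale with the P of limma. The study applied them to single transcripts, so the counts are not comparable. Of the 22 genes 5 passed (Mki67, Top2a, Ccna2, Birc5 and Cdc20), against 1.51% of all genes in the higher direction (2.5% in the lower and 4.02% in either). More genes passed as lower than as higher here, whereas the study reported more protein-coding transcripts higher than lower.

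**Figure D3:**
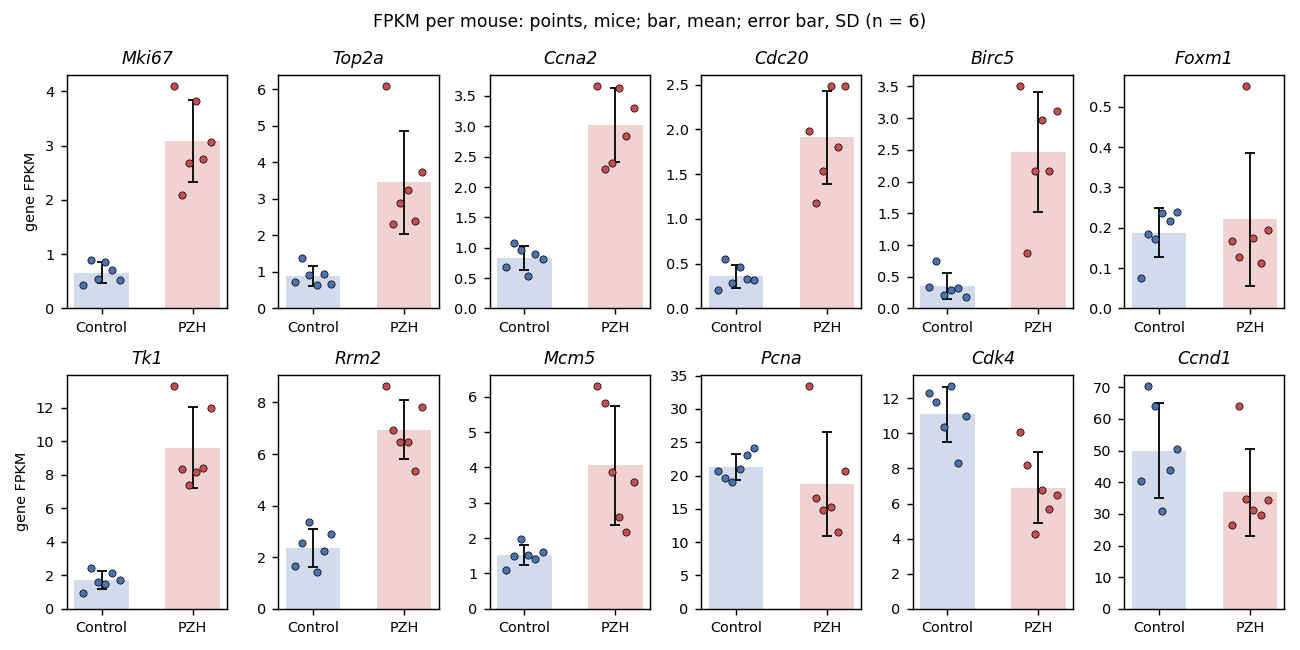
FPKM (y axis, linear, each panel on its own scale from 0) of 12 members in each mouse of the control (blue) and PZH (red) groups, with the mean as a bar and the SD as an error bar (n = 6). Mki67, Top2a, Ccna2, Cdc20, Birc5, Tk1, Rrm2 and Mcm5 show no overlap between the groups, whereas Foxm1, Pcna, Cdk4 and Ccnd1 do.

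Of the 8 genes of DNA synthesis and nucleotide supply, 5 rose and 0 fell in limma, against 12.7% and 32.1% of all genes. At an unadjusted p below 0.05 also 0 fell. Tk1, the thymidine kinase of the salvage pathway, had the largest difference of the 48 genes on the log2(FPKM + 1) scale, while Birc5 had it with 0.1 added (2.49 against 2.43). It ranged from 0.950 to 2.42 FPKM in the control mice (median 1.68) and from 7.42 to 13.3 in the PZH mice (median 8.37), a mean 5.59 times that of the controls. The lowest PZH mouse stood far above the highest control, and the difference was 1.96 ± 0.16 (SE, n = 6 per group, limma, adjusted p = 8.3e-06).

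Rrm2, the subunit of ribonucleotide reductase that is made in S phase, ranged from 1.43 to 3.36 FPKM in the controls (median 2.40) and from 5.34 to 8.64 in the PZH mice (median 6.71). The groups did not overlap, and the difference was 1.26 ± 0.14 (SE, limma, adjusted p = 4.06e-05). Uhrf1, which recruits maintenance methylation to new DNA, ranged from 0.644 to 1.07 FPKM (median 0.842) in the controls and from 0.989 to 4.10 (median 2.37) in the PZH mice, a difference of 0.89 ± 0.20 (SE, limma, adjusted p = 0.00274). PZH mouse 5 lay within the control range and the other 5 PZH mice above it.

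The large reductase subunit Rrm1 rose by 0.56 without overlap, and Rfc4, a subunit of the clamp loader, by 0.40 with overlap. Pcna, the sliding clamp itself and the most abundant of the replication genes, was not called. It ranged from 19.0 to 24.1 FPKM in the control mice (median 20.8) and from 11.6 to 33.4 in the PZH mice (median 15.9), with 4 PZH mice below all controls and PZH mouse 1 above all of them. Its difference was -0.25 ± 0.19 (SE, limma, adjusted p = 0.314). Without PZH mouse 1, the highest of its group, it was -0.43 and passed the threshold, and without PZH mouse 5, the lowest, it was -0.14. With the median-ratio scale factor and all mice the difference was -0.07. Thymidylate synthase Tyms had a difference of 0.26 (limma, adjusted p = 0.0745) and the polymerase subunit Pola1 of 0.12 (limma, adjusted p = 0.367).

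Of the 9 genes of origin licensing and the replicative helicase, 4 rose and 0 fell in limma, against 12.7% and 32.1% of all genes. The differences of all 9 were positive. Mcm5, a subunit of the helicase, ranged from 1.09 to 1.98 FPKM in the controls (median 1.5) and from 2.19 to 6.31 in the PZH mice (median 3.72). All PZH mice were above all controls, and the difference was 0.95 ± 0.19 (SE, limma, adjusted p = 0.0013). Mcm4, another subunit, ranged from 1.71 to 2.32 FPKM (median 2.11) in the controls and from 2.15 to 4.58 (median 3.04) in the PZH mice, a difference of 0.44 ± 0.14 (SE, limma, adjusted p = 0.0184). Here PZH mouse 5 lay within the control range.

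Cdc6, which loads the helicase, was low in all mice. It was listed at 0 in control mouse 2, had a control median of 0.0510 and a highest control value of 0.143 FPKM, and ranged from 0.145 to 0.859 in the PZH mice (median 0.402). The groups did not overlap but came close to each other at the lowest PZH mouse, and the difference was 0.43 ± 0.11 (SE, limma, adjusted p = 0.00827). Gins2, a subunit of the helicase's GINS partner, rose by 0.42 with overlap. The remaining subunits were not called, with differences of 0.25 for Mcm2, 0.27 for Mcm3, 0.30 for Mcm6 and 0.12 for Mcm7, nor was the loader Cdt1 at 0.18.

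The helicase subunits act together as a ring, and 2 of the 6 were called, while the differences of all 6 were positive. Without PZH mouse 5, the lowest of its group for 7 of these 9 genes, Mcm2, Mcm3, Mcm6 and Tyms passed as well, and the number of G1/S and replication genes that rose was 14. With the thresholds of the study applied to gene sums, 2 of the 26 passed (Rrm2 and Tk1, both higher), against 1.51% of all genes in the higher direction.

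The cyclins and kinases of the G1/S step went the other way on the deposited scale. Of these 9 genes 6 fell (Ccnd2, Ccnd3, Ccne1, Cdk2, Cdk4 and Cdk6), against 32.1% of all genes that fell, and 1 rose (E2f1). In none of the 6 did the groups separate, whereas 17.9% of all genes were lower without overlap. Cdk4, the kinase partner of the D-type cyclins, ranged from 8.34 to 12.7 FPKM in the control mice (median 11.4) and from 4.25 to 10.1 in the PZH mice (median 6.62). Of the PZH mice 5 were below all controls and PZH mouse 1 lay within their range, and the difference was -0.64 ± 0.16 (SE, limma, adjusted p = 0.00545). The other kinases Cdk6 and Cdk2 had differences of -0.44 and -0.36, and the cyclins Ccnd3, Ccnd2 and Ccne1 of -0.36, -0.34 and -0.25.

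These calls depended on the scaling. With the median-ratio scale factor 1 of the 6, Cdk6, was still called, beside 2739 of all 14195 genes called lower. The differences of all 6 remained negative, from -0.47 for Cdk4 to -0.17 for Ccne1. Ccne1 was the least firm, with an adjusted p of 0.0447 in limma, and its call was lost when any single one of 9 mice was left out.

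Ccnd1, the D-type cyclin that growth signals induce, was the most abundant of the 48 genes. It ranged from 30.9 to 70.4 FPKM in the controls (median 47.2) and from 26.4 to 64.0 in the PZH mice (median 32.9). The groups overlapped widely, PZH mouse 2 stood apart from the other 5, and the difference was -0.44 ± 0.23 (SE, limma, adjusted p = 0.128). Without PZH mouse 2, the highest of its group, it was -0.61 and passed, and without control mouse 2, the highest control, it was -0.34. With the median-ratio scale factor and all mice the difference was -0.26.

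Ccne2, a cyclin of CDK2, ranged from 1.31 to 1.96 FPKM in the controls (median 1.58) and from 1.31 to 3.36 in the PZH mice (median 1.64), a difference of 0.17 ± 0.14 (SE, limma, adjusted p = 0.348). PZH mice 1 and 2 were above all controls and the others were not. E2f1, the E2F factor that itself is made in late G1, ranged from 0.727 to 1.29 FPKM (median 1.08) in the controls and from 1.66 to 2.42 (median 2.1) in the PZH mice. It was the single member of its group that rose, with a difference of 0.59 ± 0.09 (SE, limma, adjusted p = 0.00017) and no overlap.

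Replication and mitosis genes did not rank the PZH mice in the same way. Each of the PZH mice had 20 or 21 of the 22 G2/M genes above all control mice, whereas for the 17 replication genes outside the cyclin, kinase and E2F1 group this number was 17 in PZH mouse 1, 16 in mouse 2, 13 in mouse 3, 10 in mice 4 and 6, and 6 in mouse 5. In PZH mouse 5, 7 of these 17 were below all controls with the FPKM as deposited. PZH mouse 1 was the highest of its group for 14 of the 17 replication genes and 14 of the 22 G2/M genes.

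PZH mouse 2 had high replication genes and the lowest G2/M genes of its group, being lowest for 17 of the 22. The median difference from the control mean, with 0.1 added before the logarithm, was 0.85 for its replication genes and 1.17 for its G2/M genes. In PZH mouse 5 these values were 0.05 and 1.48, and in PZH mouse 1 they were 1.08 and 2.05. The control mice lay between -0.17 and 0.08 for the replication genes and between -0.27 and 0.30 for the G2/M genes. These are descriptions of single mice with the FPKM as deposited and were not tested. The median-ratio scale factor was 0.99 for PZH mouse 5 and 1.03 to 1.11 for the control mice, and it was not applied here.

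**Figure D4:**
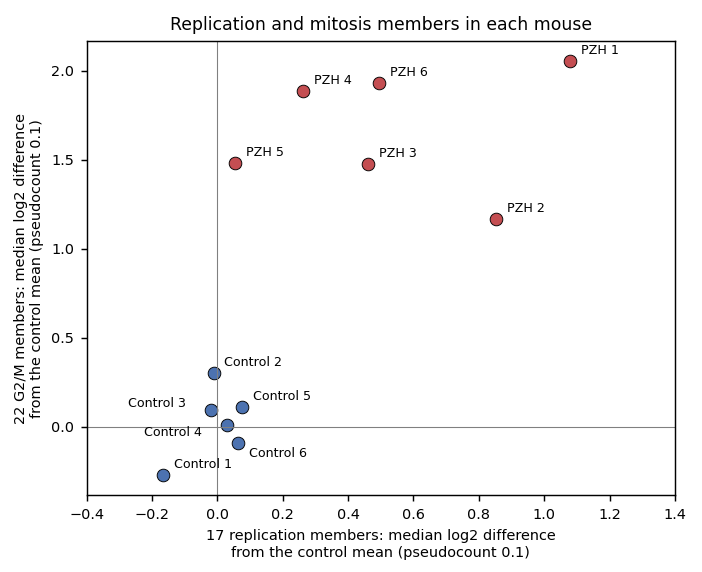
Median log2 difference from the control mean, with 0.1 added, of the 17 replication genes (x axis) and the 22 G2/M genes (y axis) in each control (blue) and PZH (red) mouse. All PZH mice lie above all control mice on the y axis, and on the x axis PZH mouse 5 at 0.05 lies within the control mice. The FPKM are as deposited, without the median-ratio scale factor.

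**Figure D5:**
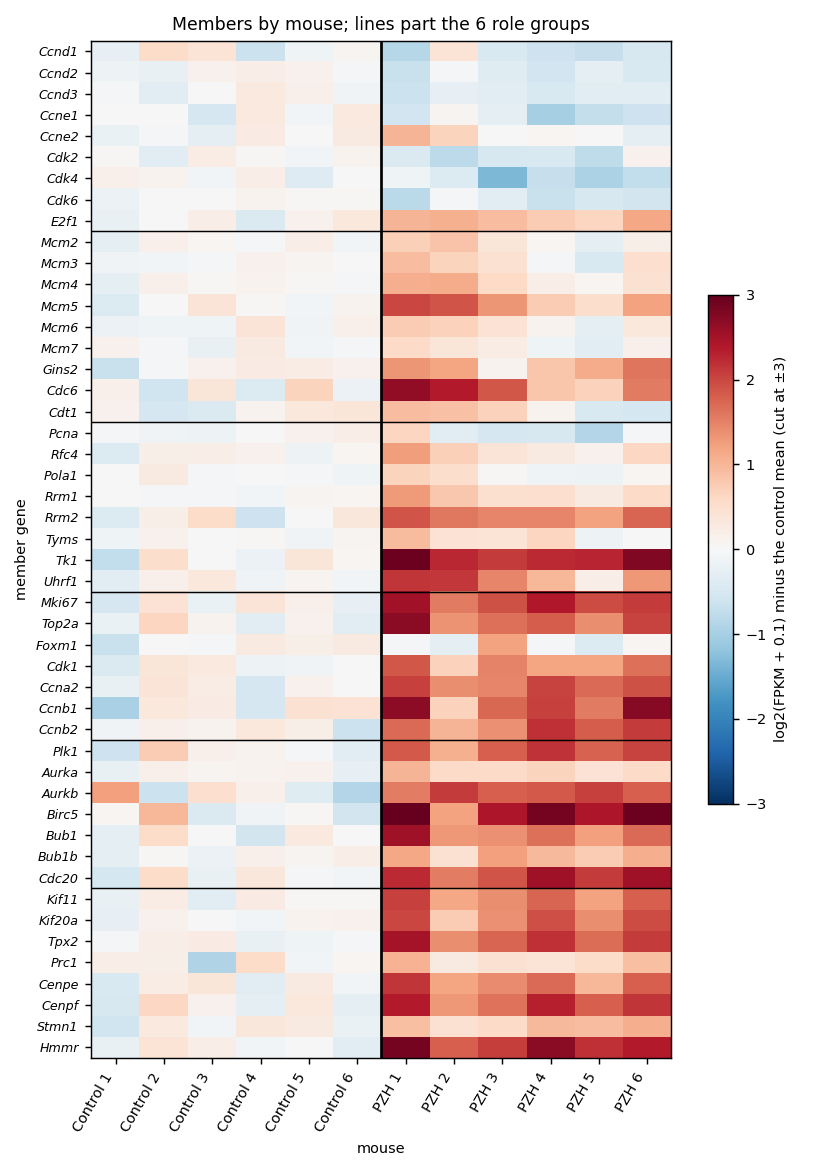
log2(FPKM + 0.1) minus the control mean (colour, cut at ±3) of the 48 genes (y axis, lines between the 6 role groups) in the 12 mice (x axis). The G2/M genes except Foxm1 and Prc1 are above all controls in every PZH mouse, the helicase genes are strongest in PZH mice 1 and 2, and most cyclins and kinases of the G1/S step are pale blue in PZH mice.

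At the level of single transcripts, 28 of the 48 genes had 1 listed transcript and 20 had several, and of the 82 transcripts 29 rose and 4 fell (limma, adjusted over all transcripts), against 5.73% and 14% of all transcripts. Both listed transcripts of Birc5 and both of Rrm2 rose. Uhrf1 was spread over 4 transcripts and Prc1 over 5, and 0 of these 9 was called alone although both genes rose in sum. Kif20a had 2 transcripts, of which 1 made up 34.7% of the gene in the control group and 68.5% in the PZH group, and neither was called. FPKM is divided between transcripts that share most of their sequence by the assembler, so the split is less certain than the sum, and the part of this division in the differences was not tested.

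Other genes of the same processes were counted from further lists. Of 61 other mitotic genes 58 were listed, of which 44 rose (75.9%, against 12.7% of all genes) and 0 fell in limma (1 fell at an unadjusted p below 0.05). In 32 the groups did not overlap, against 6.46% of all genes, and the median difference was 0.40. Of the 58, 42 had a mean under 1 FPKM, and such low genes can be listed through the PZH mice alone. The largest rises were in the kinetochore genes Spc24 (1.34) and Cenpm (1.12). Of 47 other replication genes 46 were listed, of which 10 rose (21.7%, against 12.7% of all genes) and 5 fell (10.9%, against 32.1%), with a median difference of 0.004. Among these the primase subunit Prim1 and the initiation factor Mcm10 rose by 0.92 and 0.84, and Pole4, a polymerase epsilon subunit, and the maintenance methyltransferase Dnmt1 fell by 0.69 and 0.54.

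Of 26 other regulators of the G1/S step 24 were listed, of which 5 rose (20.8%) and 8 fell (33.3%, near the 32.1% of all genes that fell), with a median of -0.19. Cdkn1a, which encodes the CDK inhibitor p21, ranged from 31.8 to 46.7 FPKM in the control mice (median 36.8) and from 7.68 to 9.99 in the PZH mice (median 8.23). Its mean was 4.45 times lower in the PZH mice without overlap, and the difference was -2.02 ± 0.09 (SE, limma, adjusted p = 2.61e-07). Cks1b, a small subunit of CDK complexes, fell by 1.06, while the CDK4 and CDK6 inhibitor Cdkn2c and the pocket protein Rbl2 rose by 0.93 and 0.50, the latter not called with the highest transcript of each gene.

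Marker genes of the cell types of the liver were counted in the same fit, in which 12.7% of all genes rose and 32.1% fell. Hepatocyte markers were abundant in all mice, as in liver, with a summed level of 25190 to 38827 FPKM in the controls and 43027 to 59934 in the PZH mice, and 3 of 8 rose (Cps1 by 0.85, Alb by 0.68 and Ttr) and 1 fell (Hnf4a). Of 8 stellate cell and myofibroblast markers 1 rose (Col3a1) and 2 fell (Acta2 by 0.92 and Des), with summed levels of 220.3 to 342.1 and 283.7 to 366.1 FPKM. Of 8 macrophage markers 2 rose and 2 fell, with Cd14 falling by 2.73 and the Kupffer cell marker Clec4f rising by 0.60 (not called without PZH mouse 3), and the summed levels overlapped at 294.8 to 405.8 and 283.3 to 433.8 FPKM.

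Of 7 endothelial markers 2 fell (Lyve1 and Pecam1, the latter not with the median-ratio scale factor), and of 5 bile duct markers 1 fell (Sox9 by 1.64), shares of 28.6% and 20% that were below that of all genes. With the median-ratio scale factor 6 hepatocyte markers and 4 stellate cell and myofibroblast markers rose, beside 2807 of all 14195 genes. The 8 lymphocyte markers all had a mean under 1 FPKM, with a summed level of 2.25 to 3.93 in the controls and 2.33 to 3.85 in the PZH mice, and 0 were called in limma, nor at an unadjusted p below 0.05. Of 7 neutrophil markers 1 fell (Cxcr2), with summed levels of 15.7 to 58.3 and 11.7 to 139.7 FPKM.

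Of 5 listed erythroid markers 2 rose, the transcription factor Klf1 by 0.52 without overlap and Alas2 by 0.30, a call that was lost under 12 alternatives, and their summed levels were 522.0 to 764.7 FPKM in the controls and 379.0 to 854.0 in the PZH mice. Which cells carried the mitotic transcripts, and the part of cell types in these differences, was not tested.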

How the data were processed

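The authors sequenced RNA of 12 mouse livers (6 control, 6 PZH), depleted of ribosomal RNA, from stranded libraries. Trimmomatic was their read trimmer, HISAT2 (version 2.1.0, genome GRCm38) their mapper and StringTie (version 1.3.5, annotation of Ensembl release 95) their assembler, and the deposited values are FPKM per transcript and mouse. Groups and mouse numbers were read from the labels. The separate lncRNA table was not used. Among protein-coding transcripts 29876 of 29883 matched GENCODE M21, and gene FPKM was their sum (14195 genes). No further filter on low values was applied. The transcripts are listed from a FPKM sum of 1 over the 12 mice upwards, so a gene that is low in one group can be listed through the other group.

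Differences were computed on log2(FPKM + 1) with limma 3.58.1 in R 4.3.3 with default variance moderation, two-sided, over all genes, and genes with a Benjamini-Hochberg adjusted p below 0.05 were called. Each sample was the liver of 1 mouse. For single genes the mean difference was also compared with all divisions of the mice (exact permutation test, two-sided). Ranges, counts and promoter searches used Python 3.11.15 with pandas 2.3.3 and numpy 2.4.6, and plots matplotlib 3.10.9. In simulated data of the 14195 genes with 200 changed by 1.5 on the log2 scale, 194 were recovered and 10 unchanged genes were called. The simulated noise was independent between genes, and most members differed by less than 1.5. These rates therefore check the fit and do not describe the calls of the members.

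Low FPKM values fell on multiples of 1 step in 16.8% to 21.5% of cases (tolerance 0.05 of a step, 10% by spacing alone), so reads were not recovered, the depth is unknown and no counting interval is given. The counts and medians of the members, their differences and the counts of the other lists were computed again (transcript and per-mouse counts were not) with 0.1 added in place of 1, with genes of a mean below 1 FPKM left out, with a median-ratio scale factor, with an equal FPKM sum, with only the highest transcript of each gene, with a mean-variance trend, unmoderated, with mouse number as a block, by the criteria of the study, and without each single mouse. The members and all gene lists were chosen with earlier results of these data known. All members were named, and the lowest, median and highest level are given for 8 preset genes and the 3 largest differences of each role group. Of the other lists, the 2 largest rises and falls, or up to 2 called markers, are named, and Ttr, Hnf4a and Des were added after their values were seen.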

Additional observations from a re-analysis of the deposited data

Results flagged for a closer look

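Among the 48 genes, 7 of 96 tested groups of 6 mice held a mouse far from the others by Dixon's test, where chance gives about 1 in 20. In the PZH group these were Ccnd1 in mouse 2, at 64.0 FPKM with the next at 34.8, Cdk2 in mouse 6, at 3.92 with the next at 2.63, and Foxm1 in mouse 3, at 0.552 with the next at 0.195. Aurka and Bub1 stood apart in PZH mouse 1, at 2.92 and 1.06 FPKM, with the next mice at 2.26 and 0.549. In the control group Birc5 and Pola1 stood apart in mouse 2, at 0.746 and 2.35 FPKM, with the next mice at 0.337 and 1.93. The test was run on untransformed FPKM, and its rate of 1 in 20 holds for normally distributed values, which was not checked. All 7 were the highest of their group, and their cause was not tested.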

How the results depend on the processing

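The 21 G2/M genes that rose were 19 to 21 under the alternatives that tested all 22, and 10 with a mean of at least 1 FPKM, which left 10 to test. Most of these 10 reached that mean only through the PZH mice. With the thresholds of the study applied to gene sums, 5 G2/M genes and 2 G1/S and replication genes passed, against 4.02% of all genes. The median difference of the G2/M genes was 1.73 with a pseudocount of 0.1, 0.99 with the mean of at least 1 FPKM and 0.74 with the median-ratio scale factor, which also gave 0.39 for the G1/S and replication genes and 1 in place of 6 lower calls (13 in place of 10 higher). With the highest transcript of each gene the difference of Aurka was -0.11, since that transcript made up 88.0% of the gene in the control and 51.2% in the PZH group, and Uhrf1 (0.26), Cdk4, Ccne1 and Prc1 lost their calls. Leaving out 1 mouse in turn gave 14 to 19 calls of G1/S and replication genes, with 9 to 14 higher and 5 to 7 lower, and 20 to 21 of G2/M genes, with medians of 0.18 to 0.34 and 0.62 to 0.71. The largest gain, to 14 higher, came without PZH mouse 5. Prc1 lost its call without control mouse 3 or 5 or PZH mouse 1 or 6. Mouse numbers did not pair the samples (correlations of -0.07 to 0.08 between same-numbered mice, 0 of 6 over 0.1, 1 of 6 highest with its own number). With the number as a block 21 G2/M genes and 15 G1/S and replication genes were called, without Ccne1 and Rfc4 and with Ccnd1. No read depth is known, which leaves the lowest levels, such as Cdc6, Bub1 and Cenpe, with an unknown counting error.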

Other observations

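Among the named genes outside the 48, Cdkn1a, Cks1b, Prim1, Mcm10, Spc24, Cenpm, Klf1 and Sox9 were called under all alternatives that tested them. Alas2 lost its call under 12 alternatives, Rbl2 with the highest transcript of each gene, Clec4f without PZH mouse 3 and Pecam1 under the median-ratio scale factor, where its difference was -0.12.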
